A study of Glycine max with 30 samples.

Results

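In soybean (Glycine max), 367 genomic regions carried the histone mark H3K27me3 in embryos of 4 stages and in seedlings, at a level that was over 1.5 times as high in seedlings as in the embryo mean. H3K27me3 is histone H3 trimethylated at lysine 27, mapped here by chromatin immunoprecipitation and sequencing (ChIP-seq). The regions were chosen by the H3K27me3 values themselves. In each stage's list of enriched intervals (islands), the 5% with the lowest ratio of ChIP reads to control reads were dropped. The 5 lists were then merged wherever islands overlapped by at least 1 bp, and regions under 20000 bp with islands in all 5 lists were kept. Within a region the ChIP reads and the control reads of its islands were summed, and their ratio was divided by the median island ratio of the list. That quantity is called the level below, and a level of 1 is that of the median island of its list. The merge gave 21082 regions, of which 9706 had islands in all 5 lists and 8789 of these were under 20000 bp. The 367 members were 4.18% of those 8789 shared regions, and the remaining 8422 are called the other shared regions.

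All plants were of the cultivar Williams 82, and the labels name no mutant or treatment, so the groups differ by stage. Embryos were taken at the cotyledon stage (seeds of 2.5 to 3.5 mm), early maturation (seeds of 6 to 7 mm), mid-maturation (seeds of 200 to 250 mg) and late maturation (yellow seeds of 230 to 500 mg), and seedlings at 8 days. From each stage, 2 biological replicates were precipitated with 3 antibodies, against H3K27me3, H3K4me3 and total histone H3 as the control, making 30 samples in 15 groups. The H3K27me3 and H3K4me3 data came as 1 list per stage and mark, with the replicates pooled. Differences between stages could thus not be set against the spread of replicates. Late maturation embryos were ground frozen, crosslinked on ice for 15 minutes and their nuclei taken from a gradient, whereas the other tissues were crosslinked whole for 10 minutes, so for that stage development and preparation cannot be told apart. Seedlings and embryos hold many cell types, and a higher level in more cells cannot be told apart from a higher share of cells that carry the mark.

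H3K27me3 is written by Polycomb repressive complex 2 and is found over genes that are kept silent. In plants, as known best from Arabidopsis, the mark is reset as one phase of life gives way to the next, and genes of the embryo programme gain it after germination. H3K4me3 is laid down at the starts of transcribed genes and often, but not always, excludes H3K27me3. The genome build of the lists is not given in the sources used here, and no annotation of it was used, so regions are named by position and no gene is assigned to them.

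The island lists held between 6837194 ChIP reads at early maturation and 23990523 at the cotyledon stage after the drop, with 10188147 in seedlings. Their control reads ran from 3887154 at mid-maturation to 8617809 at the cotyledon stage, with 6574279 in seedlings. The cotyledon list holds the most reads in its islands, but the counting error of a level depends on the reads of its own region. The median island ratio was 2.15, 1.03, 2.16 and 1.26 in cotyledon-stage, early, mid- and late maturation embryos and 1.39 in seedlings, which is why levels are compared only after division by it.

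Over the 367 members, the median level was 1.1 at the cotyledon stage, 0.91, 0.70 and 0.79 at early, mid- and late maturation, and 1.61 in seedlings. The other shared regions stood at 1.32 at the cotyledon stage, 1.05, 1.1 and 1.12 at early, mid- and late maturation, and 1.07 in seedlings. The members thus lay below the other shared regions at each embryo stage and above them in seedlings, which the rule selected for and which is given as a description. The seedling level over the embryo mean had a median of 1.70 in the members, with quartiles of 1.58 and 1.98 and a range from 1.5 to 3.65, against a median of 0.92 in the other shared regions.

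The embryo mean hides which embryo stage was closest to seedlings. Seedlings had the highest level of all 5 stages in 328 members (89.4%), and exceeded each embryo stage by more than 1.5 times in 77. The seedling level was over 1.5 times that of the cotyledon stage in 201 members, of early maturation in 241, of mid-maturation in 312 and of late maturation in 311. Over all 367 members the contrast was therefore most often past that size against the 2 later embryo stages. The 2 kinds of member described below differ in this. In 240 of the members the median contrast was alike through maturation, at 1.81 times early, 1.78 times mid- and 1.79 times late maturation. Counting error of the reads alone, taken as a 95% interval of each ratio with the list medians held fixed, left the lower bound above 1 in 363 of 367 members and above 1.5 in 110. Every member was chosen by a ratio above 1.5, so the counts in this paragraph follow in large part from the rule and are given as a description.

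**Figure D1:**
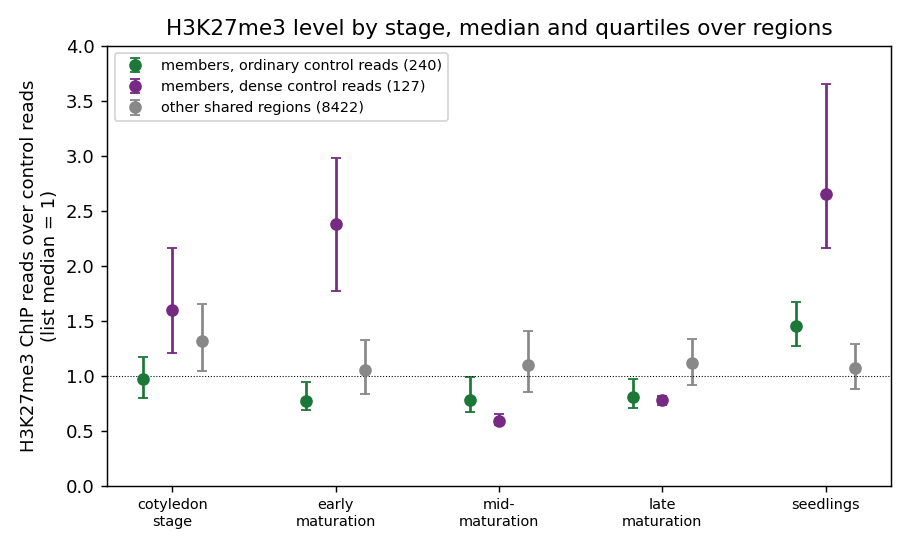
H3K27me3 level (ChIP reads over control reads of a region, divided by the list median, y axis) at the 5 stages, as medians (points) and quartiles (bars) over 240 members with ordinary control reads, 127 members with dense control reads and 8422 other shared regions. The first group is highest in seedlings at 1.45, while the second is also high at early maturation, at 2.38.

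The members were of 2 kinds, split here by their control reads. In 127 of the 367 (34.6%), the control reads per kb of island exceeded 2 times the list median in at least 1 list, a split that was chosen after the values were seen. Among all 8789 shared regions 2.88% did so, and among the other shared regions 126 (1.5%). The remaining 240 members had ordinary control reads. The control reads are part of the rule, since a dense control in embryos lowers the embryo level, so this share is a description.

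In the 127 members with a dense control, the median control density over the list median was 1.61 at the cotyledon stage, 1.98, 3.57 and 6.85 at early, mid- and late maturation, and 1.16 in seedlings. In the 240 others it stayed between 0.99 in seedlings and 1.11 at late maturation. The control density was above 2 times the list median in 125 members at late maturation, 105 at mid-maturation and 6 in seedlings. A dense control can make a region a member when it lies in embryos and not when it lies in seedlings. An excess in embryos over seedlings thus follows from the rule. The rule takes the mean of the 4 embryo stages and does not set at which of them the excess lies, and the cause of its stage was not tested. In the 126 other shared regions with a dense control, the median control density was 1.15 at the cotyledon stage, 1.46, 2.07 and 2.53 at early, mid- and late maturation, and 1.47 in seedlings.

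The ChIP density differed between the kinds as well, at 5.01 times the list median in dense-control and 0.81 times in ordinary-control members at early maturation, and at 2.95 and 1.4 times in seedlings. Inside their islands, the 240 members with an ordinary control had a seedling ChIP density 1.57 times the embryo mean at the median, and it was above the embryo mean in 237 of them. Their control density, seedlings over the embryo mean, was 0.95. In the 127 dense-control members the ChIP density ratio was 0.81, above 1 in 33 of them, while the control density ratio was 0.32. The rule on ChIP over control and the split by control together fix much of this difference, which is given as a description. For these 127 the description "stronger in seedlings" holds for ChIP over control but in most of them not for the ChIP reads themselves. For the other shared regions the ChIP density ratio was 0.91 and the control density ratio 0.99.

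**Figure D2:**
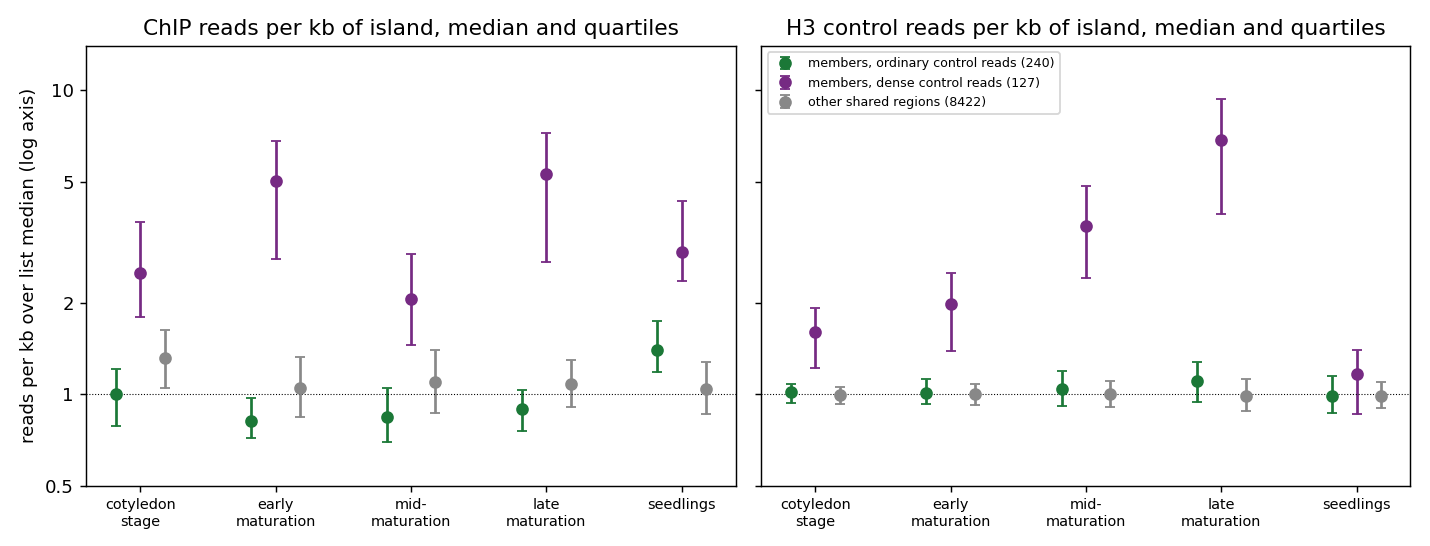
ChIP reads (left) and H3 control reads (right) per kb of island, divided by the list median (y axis, log scale), at the 5 stages, as medians and quartiles over the same 3 sets of regions. The dense-control members reach a median of 6.85 in the late maturation control and fall to 1.16 in the seedling control, whereas the ordinary-control members change mainly in the ChIP, at 1.4 in seedlings.

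The 240 ordinary-control members had embryo levels below that of the median island and a seedling level above it. Their median level was 0.97 at the cotyledon stage, 0.78, 0.78 and 0.81 at early, mid- and late maturation, and 1.45 in seedlings, and seedlings were highest in 235 of them (97.9%). The cotyledon stage was the highest embryo stage in 133 (55.4%). The median seedling level was 1.47 times the cotyledon level, 1.81 times early maturation, 1.78 times mid-maturation and 1.79 times late maturation, so the cotyledon level was nearest to the seedling level. A higher cotyledon level was not particular to these members. Early maturation over the cotyledon stage had a median of 0.805 in the other shared regions and 0.848 in the ordinary-control members. From early to late maturation the level hardly moved: mid-maturation over early maturation had a median of 1.02.

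Because counts were summed over each list's own islands, a narrow strong seedling island inside a region that was broadly marked in embryos also counts as a member. Islands covered a median of 89.7% of the ordinary-control members at the cotyledon stage, 69.8%, 57.0% and 71.4% at early, mid- and late maturation, and 57.7% in seedlings. The cotyledon list holds the most reads and the most islands, and the part of depth in these covers was not tested. As a measure that also counts cover, the ChIP reads of the islands were divided by the width of the whole region and by the list median density. This is called the region-wide density below (reads outside islands are not in the lists). Differences in cover between lists, and any part of depth in them, enter this density. In the ordinary-control members the region-wide density was 1.26 times as high in seedlings as in the embryo mean, at the median. It exceeded the embryo mean in 168 of 240 members and exceeded it by 1.5 times in 84. In the 8422 other shared regions it exceeded the embryo mean in 18.8% and exceeded it by 1.5 times in 219. This density uses the ChIP reads that chose the members, so their place above the other shared regions follows in large part from the rule. The counts are given as a description. In these 84 regions both the level and the region-wide density were over 1.5 times as high in seedlings, and the median density ratio was 1.88. Seedling islands covered a median of 84.5% of them, and 42.9% of the other 156. The cover in seedlings over the embryo mean had a median of 1.15 in the 84 and 0.651 in the other 156. For the ChIP density inside islands the medians were closer, at 1.62 and 1.52.

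The 10 ordinary-control members with the highest ratios, among those with at least 100 ChIP reads in every list, show both forms. They were picked after the values were seen, because the 10 members with the highest ratios at that read minimum all had a dense control. At chr6:3258401-3264800 (6400 bp) the level was 1.12, 0.885, 0.784 and 1.08 from the cotyledon stage to late maturation and 2.21 in seedlings. Its seedling islands held 1264 ChIP reads and 410 control reads and covered 84.4% of the region. The ratio was 2.29 (95% counting interval 1.97 to 2.65) and the seedling region-wide density was 2.99 times the embryo mean, so both measures put seedlings above all embryo stages.

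At chr2:43608401-43613400 (5000 bp) the level was 0.90, 0.702, 0.873 and 0.883 in the embryo stages and 1.82 in seedlings, with a ratio of 2.17 (1.88 to 2.51). At chr7:43507601-43512400 (4800 bp) it was 0.895, 0.617, 0.765 and 0.723 in the embryo stages and 1.58 in seedlings, with a ratio of 2.11 (1.79 to 2.49). At chr4:5297401-5299800 (2400 bp) it was 0.663, 0.874, 0.958 and 0.834 in the embryo stages and 1.75 in seedlings, with a ratio of 2.11 (1.71 to 2.60). In all 3 regions the seedling region-wide density was over 2 times the embryo mean, at 2.29, 2.61 and 2.49.

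Close behind them in region-wide density were chr3:45611201-45618600 (7400 bp, ratio 2.35), chr11:4847401-4855000 (7600 bp, ratio 2.34) and chr1:53220401-53226000 (5600 bp, ratio 2.33), at 1.96, 1.99 and 1.88 times the embryo mean. The chromosome 3 region stood at 1.01 at the cotyledon stage, 0.636, 0.526 and 0.596 through maturation and 1.63 in seedlings. In it the level dipped in maturation and was higher on either side, with the seedling level above the cotyledon level. The chromosome 11 region was at 0.752, 0.839, 0.688 and 0.583 in the embryo stages and 1.67 in seedlings.

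The other form is a seedling island that covers a small part of a region. At chr20:41463001-41470800 (7800 bp), the ratio was 2.75 (2.12 to 3.56) and the levels were 0.761, 0.899, 0.674 and 0.865 in embryos and 2.20 in seedlings. The seedling islands covered 7.69% of it, against 87.2% at early maturation, and the region-wide density was 0.394 times the embryo mean. At chr6:6579401-6588200 (8800 bp), the ratio was 2.51 (1.77 to 3.56), the seedling islands covered 6.82% and the region-wide density was 0.211 times the embryo mean. The third, chr8:9930401-9936000 (5600 bp), had a ratio of 2.23, a seedling cover of 17.9% and a region-wide density of 0.382. In the first and second of these regions the seedling ChIP density inside islands was 3.81 and 2.46 times the list median, and embryo islands covered over 50% of the region at every stage. In the chromosome 8 region it was 1.00 times the list median, beside 1.1 at early maturation and a seedling control density of 0.556, and embryo islands covered between 28.6% and 71.4%. The member with the highest ratio of all, chr5:40696601-40699400 (2800 bp, 3.65), also had an ordinary control, but with 91 seedling ChIP reads and a seedling cover of 21.4% it fell short of the 100 reads asked of the regions described in full.

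**Figure D3:**
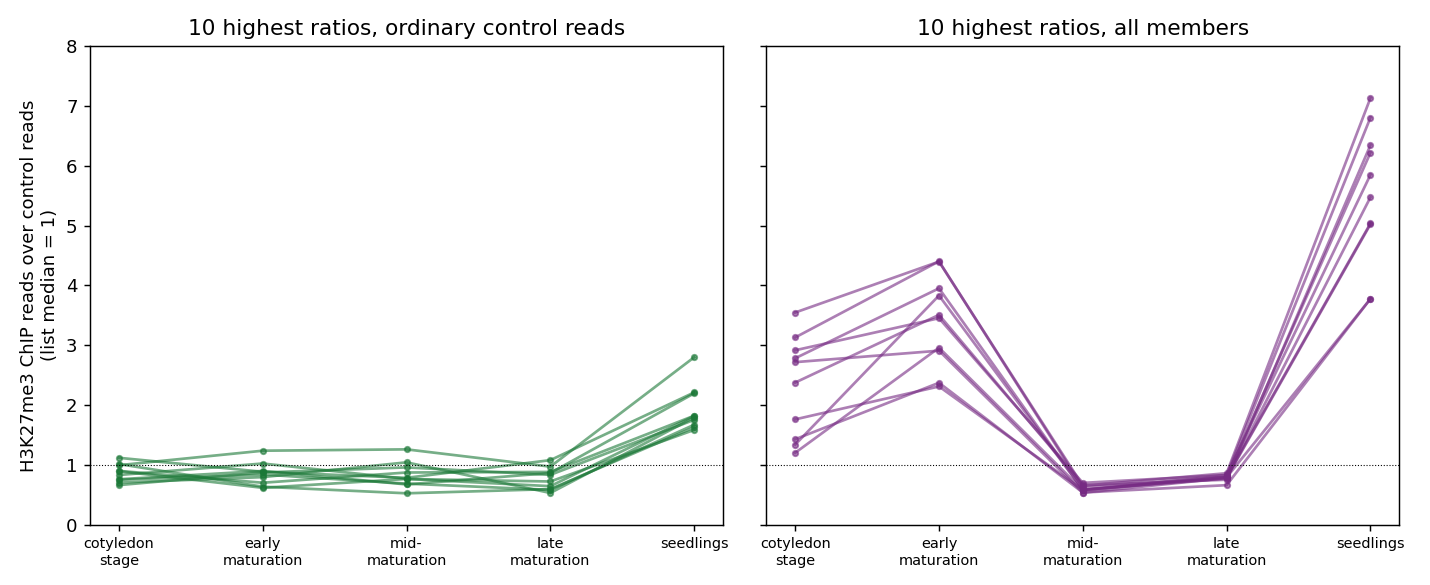
H3K27me3 level (list median = 1, y axis) at the 5 stages for the 10 members with the highest ratios among the 240 with ordinary control reads (left) and among all 367 (right), both limited to members with at least 100 ChIP reads in each list, 1 line per region. Left, the embryo points lie between 0.526 and 1.26 and the seedling points between 1.58 and 2.80; right, the level is low at mid- and late maturation only, and already stands between 2.31 and 4.40 at early maturation.

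The 127 dense-control members followed another course. Their median level was 1.60 at the cotyledon stage, 2.38, 0.59 and 0.78 at early, mid- and late maturation, and 2.65 in seedlings. Early maturation was the highest embryo stage in 105 (82.7%), mid-maturation was the lowest in 112 (88.2%), and seedlings were highest of all in 93 (73.2%). The seedling level was 1.22 times that of early maturation at the median but 4.59 times that of mid-maturation, so for most of these members the ratio rests on the low mid- and late maturation levels.

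The region at chr8:19987001-19989200 (2200 bp) had the highest ratio of this kind, 3.64 (2.63 to 5.04), with levels of 1.20, 2.96, 0.579 and 0.797 in embryos and 5.04 in seedlings. Its ChIP reads numbered 479, 360, 185, 427 and 337 from the cotyledon stage to seedlings, and its control reads 185, 118, 148, 424 and 48. The control density was 12.7 times the list median at late maturation and 1.03 times in seedlings, and the region-wide ChIP density in seedlings was 0.746 times the embryo mean. Inside islands the seedling ChIP density was 5.17 times the list median. That was above the cotyledon stage (1.68) and mid-maturation (2.37) and below early (9.55) and late maturation (10.0). Against the embryo mean, the numerator was thus not higher in seedlings, and the denominator was lower there.

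The same held against the embryo mean in chr13:4972401-4973400 (1000 bp), which had the most ChIP reads of the 10 highest ratios at every stage but mid-maturation. It had 1162, 929, 466, 1166 and 848 ChIP reads and 194, 228, 372, 1117 and 104 control reads in the 5 stages, and a ratio of 2.87 (2.30 to 3.59). Its late maturation control density was 20.1 times the list median. At chr20:12413801-12415400 (1600 bp), the ratio was 2.77 (2.30 to 3.34). Its ChIP reads were 857, 820, 540, 858 and 821, lowest at mid-maturation, while its control reads were 226, 344, 430, 858 and 156. Both regions had close to as many control reads as ChIP reads at late maturation.

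The remaining 7 of the 10 highest ratios were chr8:3955001-3956800 (3.48), chr4:4307201-4308400 (3.44), chr14:1673201-1675200 (3.35), chr15:7714601-7716400 (3.02), chr8:39949201-39949800 (3.02), chr7:2244401-2246800 (2.89) and chr18:3567201-3568400 (2.78). They were 600 to 2400 bp wide, and their region-wide seedling ChIP densities lay between 0.626 and 0.738 times the embryo mean. In none of the 10 was the seedling region-wide density above the embryo mean. What the dense control reads are was not tested.

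Width separated the 2 kinds further. The members had a median width of 4200 bp (400 to 19400 bp), against 7800 bp in the other shared regions. The ordinary-control members had a median of 5400 bp and the dense-control members one of 1200 bp. Of the 80 shared regions of at most 1000 bp, 60 (75%) were members, and all 60 had a dense control. Their median embryo levels were 1.71, 2.48, 0.597 and 0.779 in stage order. The 20 other shared regions of that width had 1.68, 2.09, 0.599 and 0.822, so this embryo course was not particular to the members. The share of shared regions that were members fell with width, at 28.1% from 1000 to 2000 bp, 8.40% to 4000 bp, 3.99% to 8000 bp and 1.16% above. Among ordinary-control members alone the same classes gave 5.76%, 6.27%, 3.59% and 1.11%, so the wide regions held few members of that kind too. A ratio of summed reads varies more in narrow regions, which have fewer reads, and the part this had in the shares was not tested.

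The widest member was chr12:37865401-37884800 (19400 bp), with levels of 1.20, 0.923, 1.13 and 0.775 in embryos and 1.60 in seedlings and a ratio of 1.59 (1.46 to 1.73). Islands covered 93.8% of it at the cotyledon stage, 26.8%, 27.8% and 51.5% through maturation, and 89.7% in seedlings. Its ChIP reads were 3288, 338, 639, 717 and 3094. The islands thus spanned the region in the youngest embryos and in seedlings and took up less of it in between, and its region-wide density in seedlings was 2.67 times the embryo mean. The second widest, chr17:10503201-10519000 (15800 bp, ratio 1.64), had the same outline, with covers of 94.9%, 27.8%, 25.3%, 35.4% and 91.1% and a region-wide density ratio of 3.58. The fifth, chr16:28193601-28206600 (13000 bp, ratio 1.76), was covered by at least 73.8% at every stage, and its level was 1.07, 1.00, 1.13, 1.54 and 2.09. The other two, chr13:42556401-42570600 (14200 bp, 1.54) and chr13:23037401-23051200 (13800 bp, 1.58), had region-wide densities of 0.970 and 0.612 times the embryo mean, so there the region-wide density was not higher in seedlings.

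**Figure D4:**
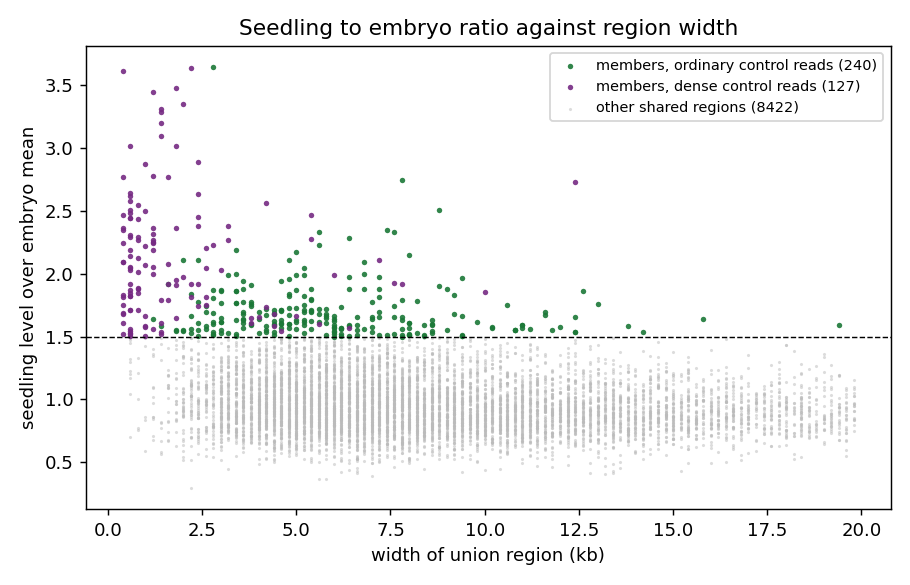
Seedling level over the mean embryo level (y axis) against region width in kb (x axis) for the 8789 shared regions, 1 point each, with the limit of 1.5 as a dashed line. Members with a dense control gather at the narrow end, with a median width of 1200 bp, while members with an ordinary control have a median of 5400 bp.

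The scale chosen for the control decides how many members remain. On the scale of the fold that the authors deposited, which rescales the read ratio by a constant particular to each list, the seedling value exceeded the embryo mean in all 367 members, but by more than 1.5 times in 131. The median on that scale was 1.4 in the members and 0.766 in the other shared regions. On region-wide density, 95 members (25.9%) exceeded 1.5 times the embryo mean, 84 of them with an ordinary control. All of these scales use the reads that chose the members, so a place above the other shared regions is given by the choice. On region-wide density the dense-control members had a median of 0.743, against 0.756 in the other shared regions.

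H3K4me3, which the rule did not use, was present within many of the regions. A peak of the same stage overlapped 41.4% of the members in seedlings (95% Wilson interval 36.5 to 46.5, with regions as the counted units) and 57.8% of the other shared regions (56.8 to 58.9). Split by kind, 52.9% of the ordinary-control members had a seedling peak, against 19.7% of the dense-control members. In order of stage, the ordinary-control members had peaks in 46.7%, 50%, 52.5%, 45.8% and 52.9%. Their share thus stayed close to even across stages and their seedling interval overlapped that of the other shared regions, while the lower share of all members lay with the dense-control kind.

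Wider regions have more room for a peak, so the shares were also set beside width. In the class from 4000 to 8000 bp, 53.1% of the ordinary-control members and 51.5% of the other shared regions had a seedling peak, and in the class from 8000 bp upwards 68.9% and 68.8%. In the class from 2000 to 4000 bp the shares were 39.0% and 36.8%, and from 1000 to 2000 bp 62.5% of 8 ordinary-control members and 26.0% of 100 other shared regions. In the 3 wider classes these shares were thus within 3 percentage points of each other, and the narrowest class rests on 8 members. A peak in all 4 embryo lists was found in 39.8% of the ordinary-control members and 29.6% of the other shared regions in the narrower class, in 57.8% and 43.6% in the wider one, and in 22.0% and 21.3% from 2000 to 4000 bp. Of the 84 ordinary-control members whose region-wide density was over 1.5 times as high in seedlings, 45 (53.6%, 43.0 to 63.8) had a peak in all 4 embryo lists, and of the remaining 156 it was 48 (30.8%, 24.1 to 38.4). This subset was formed after the values were seen. Over all 240 the share was 38.8% (32.8 to 45.0), against 35.3% (34.3 to 36.3) of the other shared regions, with overlapping intervals. The 2 marks were mapped in pooled tissue, and overlap does not show that they shared a nucleosome or a cell.

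Loss or gain of an H3K4me3 peak between embryo and seedling was uncommon among the members. A peak in all 4 embryo lists and none in seedlings was seen in 2 of 367 (0.545%), with 0.341% over all 8789 shared regions. A peak in seedlings and in no embryo list was seen in 6 (1.63%), with 4.63% over all shared regions. Both counts are small, and the first does not set the members apart from the shared regions. In the second the interval of the members, 0.751 to 3.52%, lay below the share over all shared regions. All 6 of these members had an ordinary control. Of the 127 dense-control members 25 had a seedling peak at all, so the lower share is not read as a trait of both kinds. Peaks were in all 5 lists in 113 members and in none in 139 (37.9%), against 33.8% of the other shared regions.

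The member where H3K4me3 was lost with the largest H3K27me3 ratio was chr8:9030201-9033600 (3400 bp). Its H3K27me3 level was 0.836, 0.823, 0.735 and 0.777 in embryos and 1.73 in seedlings, a ratio of 2.19 (1.72 to 2.78). Its highest H3K4me3 score, relative to the median peak score of the list, was 1.82, 1.80, 1.39 and 2.30 in the embryo stages, and no seedling peak overlapped it. The 2 marks thus moved in opposite directions here, and the embryo peaks were above the median peak of their lists. The second such region, chr5:5365201-5369400 (4200 bp, ratio 1.55), had weaker embryo peaks, with scores of 0.110, 0.373, 0.870 and 0.593.

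The 6 members with a peak in seedlings only, named after their values were seen, had seedling scores from 0.0469 to 1.84. The highest was at chr8:14928401-14931400 (3000 bp), where the H3K27me3 level was 0.747, 0.605, 0.636 and 0.583 in embryos and 1.06 in seedlings. The others were chr5:31650401-31658400, chr17:39177201-39181800, chr13:28424801-28428400, chr4:13385401-13391600 and chr6:47908401-47912400, with scores of at most 0.354. All but the highest of the 6 thus had seedling peaks well under the median peak of the list. The H3K27me3 level was higher in seedlings in all 6 by the rule, while the region-wide H3K27me3 density was lower in seedlings in 4 of them, at 0.213 to 0.735 times the embryo mean.

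Where H3K4me3 peaks were present in all 5 lists, their scores were mostly not lower in seedlings. The seedling score over the embryo mean, each relative to its list median, had a median of 1.29 in the 113 members, against 1.41 in the 2942 other shared regions. It was above 1.5 in 41 members (36.3%, 28.0 to 45.5), where 45.5% of the 3055 regions with 5 peaks were, and under 1/1.5 in 9 (7.96%, 4.25 to 14.4), where 7.43% were. The share above 1.5 had its interval end at the background, and the share under 1/1.5 was near the background.

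The highest seedling H3K4me3 score among members was 2.71 at chr9:2079801-2082600 (2800 bp, H3K27me3 ratio 1.61, 1.25 to 2.08), with embryo scores of 1.68, 1.84, 2.29 and 1.75. It was followed by chr7:43314001-43321800 (2.63, ratio 1.79), chr8:45157601-45164200 (2.39, ratio 1.51), chr17:2488401-2500800 (2.09, ratio 1.53) and chr7:1352201-1360200 (2.03, ratio 1.51). All 5 carried strong peaks at every stage, from 1.24 to 2.72 in embryos. Their region-wide H3K27me3 density was 1.28 and 2.19 times the embryo mean on chromosomes 9 and 17, and 0.700, 0.646 and 0.316 times in the other 3. In chr17:2488401-2500800 seedling H3K27me3 islands covered 75.8% of the 12400 bp, and in chr7:1352201-1360200 they covered 15.0% of the 8000 bp.

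**Figure D5:**
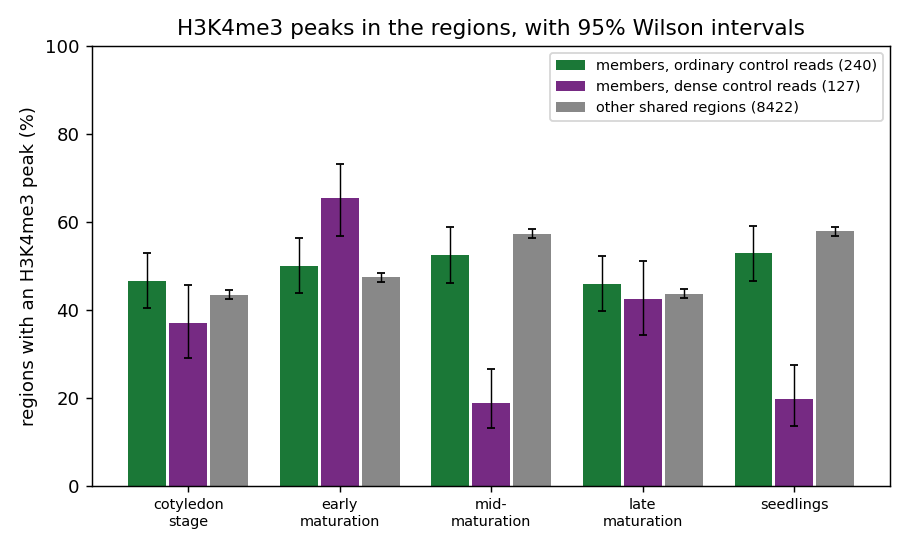
Share of regions overlapped by an H3K4me3 peak of the same stage (y axis, percent) at the 5 stages for ordinary-control members, dense-control members and other shared regions, with 95% Wilson intervals over regions. The dense-control members have peaks in 65.4% at early maturation and in 18.9% at mid-maturation and 19.7% in seedlings, while the ordinary-control members stay between 45.8% and 52.9%.

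Among the dense-control members, the H3K4me3 shares followed the stages in a pattern of their own, at 37.0%, 65.4%, 18.9%, 42.5% and 19.7% in stage order. In 24 of the 127 (18.9%) the early maturation list was the only one with a peak, as in 30 of the 8422 other shared regions (0.356%). The scores of early maturation peaks in dense-control members had a median of 0.0837 of the list median, so they were among the weak peaks of that list. Early maturation was thus the stage with the most H3K4me3 peaks in this kind and with the lowest median score, which reached 1.09 at mid-maturation in 24 regions.

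The members were spread over all 20 chromosomes, from 11 on chromosome 11 (2.80% of its shared regions) to 27 on chromosome 8 (5.59%). The largest share was on chromosome 5, with 24 of 374 (6.42%, 4.35 to 9.37), whose interval lay just above 4.18%, 1 of 20 such intervals. In the central 1 of 3 equal parts of a chromosome, where soybean chromosomes are largely gene-poor, lay 15.5% of the members (12.2 to 19.6) and 13.9% of the other shared regions (13.2 to 14.6). By kind the figures were 7.92% (5.13 to 12.0) for the ordinary control and 29.9% (22.6 to 38.4) for the dense control. The ordinary-control members thus lay more towards the chromosome arms than the other shared regions, and the dense-control members less.

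Of the 732 shared regions that neighboured a member, 40 (5.46%, 4.04 to 7.36) were members, against 4.12% for the neighbours of other shared regions. The interval held that background share. By kind the share was 4.38% (2.89 to 6.61) beside ordinary-control members and 7.51% (4.86 to 11.4) beside dense-control members. The intervals take neighbours as the counted units, and a pair of members counts from both sides. The ratio of the neighbours of members had a median of 0.974, against 0.933. There were 16 pairs and 2 runs of 3, and no region of these runs of 3 had a dense control. The first run, at chr1:53176601-53288400, had ratios from 1.54 to 2.33. The second, at chr17:10463801-10519000, had ratios of 1.91, 1.83 and 1.64, and region-wide densities of 1.87, 2.02 and 3.58 times the embryo mean. In that run all 3 regions had a higher region-wide density in seedlings.

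The limit falls among regions of nearly equal ratio. Just inside it were chr9:44700001-44706000 (1.26 to 1.79 by counting), chr16:32866201-32874000 (1.28 to 1.76) and chr1:3445001-3447400 (1.18 to 1.91). Just outside were chr10:45499401-45504600 (1.23 to 1.82), chr10:40581201-40588200 (1.21 to 1.86) and chr7:9048401-9051600 (1.08 to 2.07). All 6 ratios round to 1.5 at 2 decimals, and every one of the intervals spans the limit. Their region-wide densities were 1.31, 1.19 and 1.4 times the embryo mean inside it and 1.64, 0.626 and 0.623 times outside, where the chromosome 7 region had a dense control.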

How the data were processed

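Per the submitters' processing notes, Bowtie 0.12.7, SAMtools 0.1.19, MACS2 and SICER 1.1 were used; the genome build is not given in the sources used here. The H3K27me3 lists, with a window of 200 and a gap of 600 in their names, give for each island the counts of ChIP and control reads, a p-value, a fold over control and a false discovery rate, all as deposited by the authors with replicates pooled; the p-value was not used. The highest deposited false discovery rate was 0.498 at late maturation and 0.491 in seedlings. It was 0.0488, 0.0458 and 0.0494 at the cotyledon stage, early and mid-maturation. After the drop it was at most 0.0388 in every list. In each list the deposited fold was the ratio of the 2 counts multiplied by 1 constant, between 1.32 and 3.05. The control was taken to be the H3 libraries, which the series describes as its control. The H3K4me3 lists give positions and a score deposited by the authors, whose meaning is not stated. A score was used relative to its list median, and the highest was taken where several peaks overlapped a region. No list is named in the labels of mid-maturation; its lists were recognised by their stage code.

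From the deposited counts, levels, ratios, widths, covers and overlaps were computed with Python 3.11.15, pandas 2.3.3, numpy 2.4.6 and scipy 1.17.1, and the region merging and ratios were tested on simulated islands. Densities are reads per kb, divided by the list median. Counting intervals (95%) use the read counts alone. With 1 pooled list a stage there was no test between stages. The regions described in full were the 10 highest ratios with at least 100 ChIP reads in each list, the 5 widest, 3 on each side of the limit, those that lost H3K4me3 and the 5 with the highest seedling H3K4me3 score; the split by control density and the 2 further sets are marked in the text. Members and lists were chosen with earlier results of these data known. Alternatives tried were other drops, a cover rule, other scalings and region values, another limit and the omission of each embryo list. The merging rule was not varied. Positions are counted from 1, so the starts and ends of regions are 1 base higher than in the lists. The RefSeq table of assembly Glycine_max_v4.0 belongs to another build and was not used.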

Additional observations from a re-analysis of the deposited data

How the results depend on the processing

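The number of members was 367, and it became 115 when the lowest 25% of islands were dropped, 166 when islands had to cover at least 50% of a region in every list, 131 on the scale of the authors' deposited fold, 84 with a limit of 2 and, chosen after seeing the data, 240 without regions of dense control. Of the 367, 347 were among the 442 regions found after a false discovery rate limit of 0.05, 351 among 464 without any drop, 363 among 536 after quantile normalization, 95 among 314 on ChIP reads per kb, and 345 among 523, 319 among 369, 301 among 338 and 302 among 357 without the cotyledon, early, mid- or late maturation list. The median ratio of 1.70 became 1.60 with the 25% drop, 1.74 with the cover rule, 1.74 on the deposited fold, 1.75 on ChIP reads per kb, 2.34 with the limit of 2, 1.77 without the early maturation list and 1.63 without dense control. The median width of 4200 bp became 5600, 2200, 2200, 6600 and 1300 bp under the first 5 of these, 5000 bp after quantile normalization, 4800 bp with the highest single island, 4800 bp without the cotyledon list and 5400 bp without dense control.

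The share of members with a seedling H3K4me3 peak, 41.4%, became 50.4% with the 25% drop, 29.5% with the cover rule, 29.0% on the deposited fold, 66.6% on ChIP reads per kb, 19% with the limit of 2, 50.5% without the cotyledon list and 52.9% without dense control. The share with a peak in all 4 embryo lists, 31.3%, became 19.9% with the cover rule, 22.9% on the deposited fold, 55.1% on ChIP reads per kb, 15.5% with the limit of 2, 38.2% without the cotyledon list and 38.8% without dense control. The share that lost the peak, 0.545%, was 0 with the cover rule. The share in the central 1 of 3 equal parts of a chromosome, 15.5%, became 9.57% with the 25% drop, 21.1% with the cover rule, 22.9% on the deposited fold, 11.8% on ChIP reads per kb, 29.8% with the limit of 2 and 7.92% without dense control. Fewer islands or members enter under the drop, the cover rule and the limit of 2; otherwise the cause was not tested. With the dense control set at 1.5 or 3 times the list median in place of 2, 162 or 108 members had one. In 81 members (22.1%), and 6.11% of the other shared regions, the region's ratio of ChIP to control lay within 10% of the drop limit in at least 1 list.

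No paired analysis was possible because the 2 replicates of a stage share 1 list, and for the same reason leaving out a replicate was not run. Intervals cover counting error only, and PCR duplicates are not told apart from molecules.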
